A study of Oryctolagus cuniculus with 10 samples.

Results

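A set of 115 rabbit genes was read at low levels in stem cells expanded on 2 of 5 growth substrates, out of 12244 genes that averaged at least 1 RPKM (reads relative to gene length and to the reads counted in the library) and 29587 genes in the table. The cells were infrapatellar fat pad stem cells of New Zealand White rabbits. They had been expanded on tissue culture plastic, or else on dECM (decellularized extracellular matrix) laid down by human adipose stem cells (ASC), dermal fibroblasts (DF), synovium-derived stem cells (SDSC) or urine stem cells (USC). From each of the 5 substrates, 1 library was made from the expanded cells and 1 from pellets kept for 21 days in chondrogenic induction medium, 10 libraries in all. No genotype or added agent sets the groups apart other than the substrate and the pellet culture, and the number of animals and of human donors behind a library is not given in the sources used here. A gene was taken into the set where the lower of plastic and SDSC dECM cells stood at least 1 on the log2(RPKM + 1) scale above the higher of ASC and DF dECM cells. This distance is called the gap below. It was met by 139 of the 12244 genes, a background of 1.14%. Of these, 10 were left out because all 5 pellets differed from their cells by at least 2 in the same direction and 16 because plastic cells stood at least 1 above every dECM, with 2 genes in both counts. The set was thus chosen by the measured values of 4 cell libraries, so the low level on ASC and DF dECM is its definition and not a result.

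Infrapatellar fat pad stem cells are stromal cells from the fat cushion behind the patellar ligament. They can be driven towards cartilage, fat or bone, and are expanded before use because a joint yields few of them. A dECM is what a cell layer leaves behind after its cells have been removed, a web of collagens, glycoproteins and bound growth factors. Stem cells plated on it meet other adhesion sites and another stiffness than on plastic. In pellet culture, cells are spun down and held in a dense mass in medium that favours cartilage formation, which replaces the flat growth surface with cell contacts and newly made matrix. A gene that responds to the growth surface can therefore be read in 2 settings here, on the substrate itself and after 21 days away from it.

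The deposited table lists genes by Ensembl identifier only and does not pair them with names. The gene table at hand, for assembly mOryCun1.1, holds 38822 genes and matched 0 identifiers. Genes are therefore described by their levels, their order between libraries and their counted length, with 4 identifiers, and the cell type named in the labels could not be checked against its markers. Counted reads per library lay between 14021696 and 19828548. Each library is the only one of its kind, so there is no replicate check on any single value, and intervals on reads cover counting error only. Over all tested genes, the pellets made after SDSC dECM held the highest of the 5 pellet levels in 22.0% of genes and the lowest in 38.6%, and those made after plastic the highest in 37.8%. Plastic pellets were thus most often highest and SDSC dECM pellets most often lowest across all genes, and results in pellets are also given for each of them alone. Such shares depend on how the libraries are scaled.

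In the expanded cells, the median gene of the set stood at 35.4 RPKM on plastic and 30.7 RPKM on SDSC dECM. It stood at 8.35 RPKM on ASC dECM, 8.98 RPKM on DF dECM and 11.96 RPKM on USC dECM. The gap had a median of 1.33 and reached 3.86 on the log2 scale. It was at least 1.5 in 44 genes and at least 2 in 15. At the edge of the rule, the last gene inside had a gap of 1.01 (4.75 and 3.59 RPKM on plastic and SDSC dECM, 0.661 and 1.29 RPKM on ASC and DF dECM). The first gene outside had a gap of 0.99 (9.04 and 9.45 RPKM against 3.02 and 4.04 RPKM). In all, 34 tested genes had gaps from 0.9 to 1, counted without the exclusions. After the exclusions, 21 members had gaps from 1 to 1.1, so the edge cuts through a continuous range.

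The set spanned low and very abundant transcripts. Averaged over the 10 libraries, 26 of the 115 genes lay under 5 RPKM, 58 between 5 and 50 RPKM and 31 at 50 RPKM or more. Together the 115 genes took 6.08% of the counted reads in plastic cells and 5.81% in SDSC dECM cells. Their share was 1.52% in ASC dECM cells, 1.63% in DF dECM cells and 2.18% in USC dECM cells. In a bulk library, fewer cells of a kind and less RNA per cell cannot be told apart behind such a share.

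Reads behind these values varied widely. The median gene and library of the set held 520 reads, and the lower of ASC and DF dECM cells held a median of 225. Exact 95% Poisson intervals of the plastic and SDSC dECM cells lay wholly above those of the ASC and DF dECM cells in 109 of the 115 genes, against a background of 10.5%, a count that the gap between the same libraries favours. In the other 6 they overlapped. In 17 genes ASC or DF dECM cells had under 10 reads. The 3 genes with no reads in either were short, at 63, 133 and 147 counted bases, and had only 3 to 9 reads in plastic cells and 3 to 10 in SDSC dECM cells. With 3 reads taken as the limit of a count of 0, ASC dECM cells could still hold from 1.46 to 3.40 RPKM for these 3 genes. In 2 of them the plastic cells lay under that limit, so a difference from plastic was not detectable there at this depth. This limit is narrower than the exact interval used above, so it does not show a difference in the remaining gene.

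Within the high and the low pair, the substrates were not level. Plastic cells were above SDSC dECM cells in 80 of the 115 genes, with a median log2 difference of 0.20, against 0.05 over all tested genes. ASC dECM cells were below DF dECM cells in 86 genes, with a median difference of -0.12, against -0.01 over all tested genes. The shares of all tested genes in these 2 orders were not counted, and the same cell libraries also chose the set. Over all tested genes, plastic cells were the highest of the 5 cell levels in 32.3% and SDSC dECM cells in 11.4%. The lowest of the 5 cell levels was that of ASC dECM in 81 genes (background 24.0%), of DF dECM in 23 (background 17.5%) and of USC dECM in 8 (background 16.4%). The rule keeps plastic and SDSC dECM cells from being lowest, so these counts follow in part from the choice of genes.

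**Figure D1:**
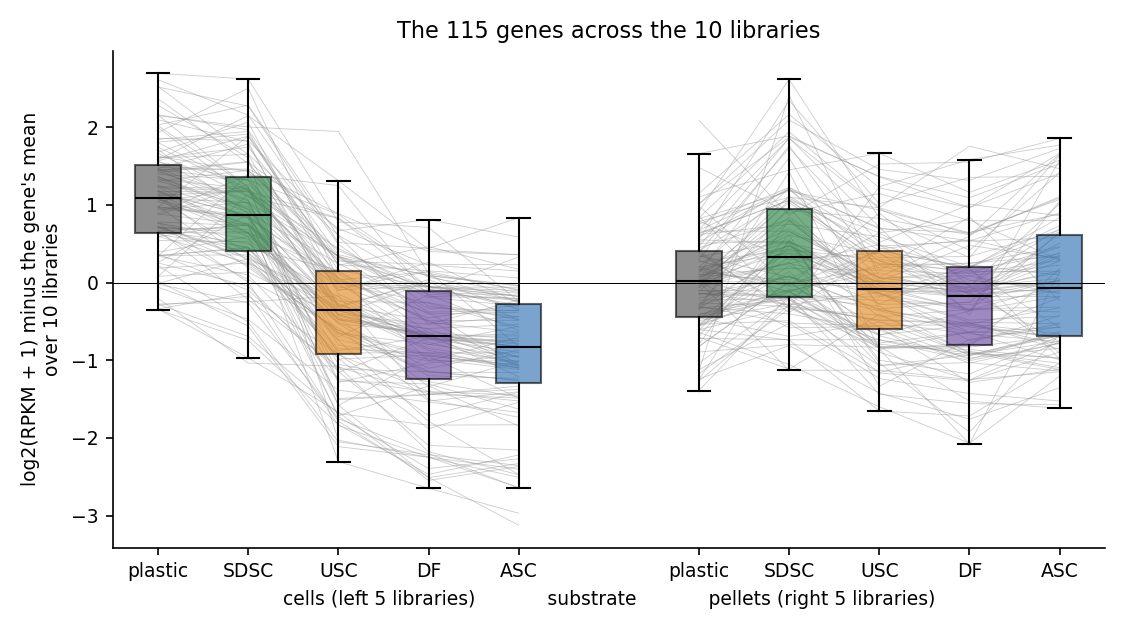
Level of each of the 115 genes in the 10 libraries, as log2(RPKM + 1) minus that gene's mean over all 10; each grey line is a gene, boxes give the median and quartiles and whiskers reach 1.5 interquartile ranges. The left 5 libraries are cells, where plastic and SDSC lie high and ASC and DF low by the choice of the genes; in the right 5, the pellets, the boxes overlap and the SDSC box lies highest.

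The 2 genes with the largest gaps were ENSOCUG00000008193 and ENSOCUG00000013367, with counted lengths of 1696 and 6198 bases. ENSOCUG00000008193 stood at 2850 RPKM in plastic cells, 1786 in SDSC dECM cells, 143 in USC dECM cells, 122 in DF dECM cells and 102 in ASC dECM cells. Its 95% counting interval in ASC dECM cells ran from 98.0 to 106 RPKM, so USC dECM cells were above ASC dECM cells but close to them beside the distance to plastic. In the pellets the same gene lay between 675 RPKM (DF dECM) and 985 RPKM (SDSC dECM), with 897 after plastic, 971 after ASC dECM and 881 after USC dECM. The plastic cell library was 27.9-fold above the ASC dECM cell library, while the corresponding pellets differed by 1.08-fold in the other direction. In pellets ASC and DF dECM minus plastic and SDSC dECM came to -0.22 (log2, SE 0.28, limma, adjusted p = 0.9999).

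ENSOCUG00000013367 followed the same order in cells, at 1277 RPKM on plastic, 720 on SDSC dECM, 77.9 on USC dECM, 61.3 on DF dECM and 48.8 on ASC dECM. In pellets it stood at 1411 RPKM after SDSC dECM, 1038 after ASC dECM, 754 after USC dECM, 625 after plastic and 519 after DF dECM. The pellet order thus mixed the 2 pairs, with ASC dECM above plastic. The pellet difference was -0.36 (log2, SE 0.50, limma, adjusted p = 0.9999). Between cells and pellets this gene was 21.3-fold higher in pellets after ASC dECM and 8.46-fold higher after DF dECM. It was 1.96-fold higher after SDSC dECM and 2.04-fold lower after plastic, so the high pair of the cells did not move alike.

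Cells on USC dECM were the library the gap did not use, although it entered the exclusion of genes higher on plastic, which took out genes with low levels there. In 91 of the 115 genes (79.1%) USC dECM cells lay inside the gap. In 22 (19.1%) they lay at or below the higher of ASC and DF dECM cells, and in 2 (1.74%) at or above the lower of plastic and SDSC dECM cells. Inside the gap they sat towards its lower edge. With the lower edge at 0% and the upper at 100%, the median place was 21.5% and the quartiles were 3.81% and 39.6%. USC dECM cells were nearer to the ASC and DF mean than to the plastic and SDSC mean in 103 genes, 89.6% of the set, against a background of 48.1% of all tested genes. They were at least 1 below both plastic and SDSC dECM cells in 69 genes, against a background of 1.11%. Plastic and SDSC dECM cells are high and ASC and DF dECM cells low in this set by choice. Both shares are therefore descriptions, beside backgrounds of genes not chosen for a gap. The median difference of USC dECM cells was -1.34 from plastic, -1.20 from SDSC dECM, 0.49 from ASC dECM and 0.31 from DF dECM. The same medians over all tested genes were within 0.06 of 0. USC dECM is 1 library, and this placement has no test.

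**Figure D2:**
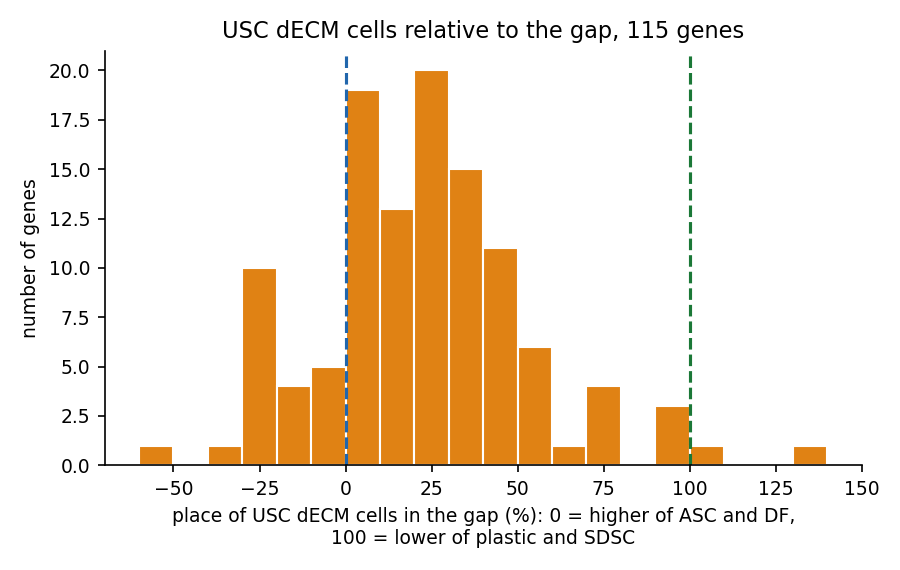
Number of the 115 genes (vertical axis) by the place of USC dECM cells in the gap (horizontal axis, in percent, where 0 is the higher of ASC and DF dECM cells and 100 the lower of plastic and SDSC dECM cells). Most bars lie between the 2 dashed lines and nearer to the left one, with a median of 21.5%; 22 genes lie at or left of 0 and 2 at or right of 100.

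Pellets were compared next, to ask whether the order seen on the substrates was still present after 21 days in pellet culture. The pellet libraries had no part in the gap and entered only the mean level and the exclusion of genes that moved in all 5 substrates. Over the 5 pellets, the median range of a gene of the set was 0.88 on the log2 scale, against 0.47 over all tested genes. The range was under 1 in 67 genes (58.3%), against a background of 90.1%. ASC and DF dECM pellets averaged 0.37 below plastic and SDSC dECM pellets at the median gene, with quartiles of -0.58 and -0.09. All tested genes had a median of 0.00 and quartiles of -0.13 and 0.14. The difference was below 0 in 96 of the 115 genes (83.5%), against a background of 49.7%. Without the SDSC dECM pellets it was below 0 in 68 genes, with a median of -0.13 beside -0.07 over all tested genes. The share of all tested genes below 0 was not counted for that comparison, and the 49.7% does not apply to it. With all pellets, the difference was smaller than in cells, where the choice of genes gave a median of -1.62. It was under 0.5 in size in 75 genes (65.2%), against a background of 93.7%.

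No single gene passed the test of this pellet difference. limma, fitted to the 5 pellet libraries with Benjamini-Hochberg adjustment over all 12244 genes, called 0 genes, a background of 0%, and 0 of the 115. Before adjustment, 20 genes of the set (17.4%) had a p under 0.05, 18 of them lower after ASC and DF dECM, as did 330 of all tested genes (2.70%). limma-voom on reads recovered from the RPKM also called 0. There, 22 genes of the set (19.1%) were under 0.05 before adjustment, beside 2.70% of all tested genes. The error of this test is the spread between 2 substrates of a pair, not between repeated cultures, and the pairs were taken from the cell results. Leaving out 1 pellet library leaves its pair with a single library, assumed to vary like the other pair, and 1 residual degree of freedom. So fitted, 11 of the 115 genes were called without the plastic pellets (background 1.44%) and 2 without the ASC dECM pellets (background 0.376%). Of the 115 genes, 0 were called without the SDSC dECM pellets (background 0.00817%) and 0 without the DF dECM pellets (background 0.172%). The median pellet difference of the set was -0.13 without the SDSC dECM pellets, beside -0.07 over all tested genes. Without the DF dECM pellets it was -0.27, beside -0.04 over all tested genes.

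**Figure D3:**
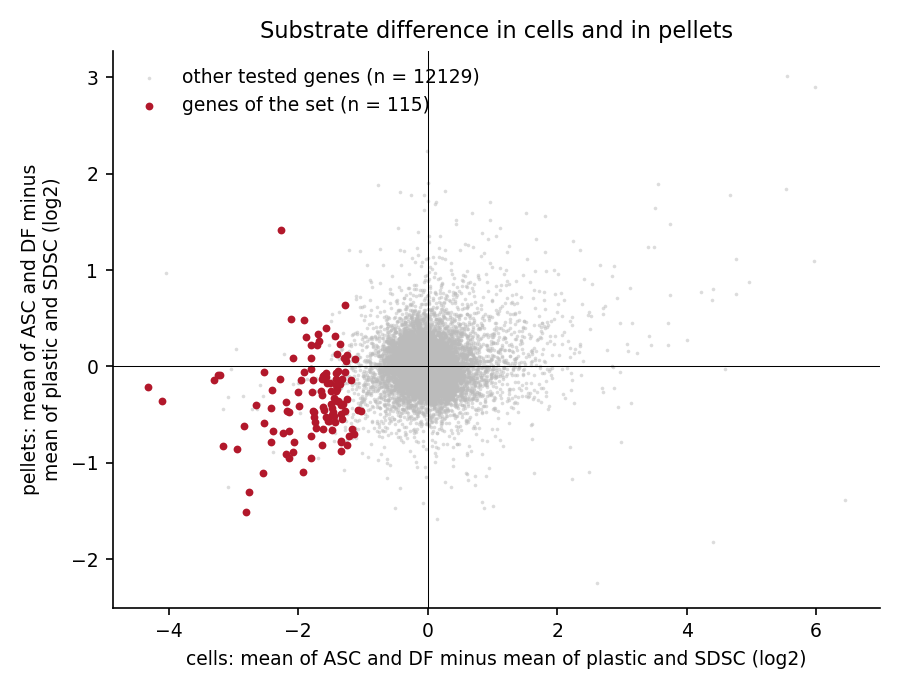
Mean of ASC and DF dECM minus mean of plastic and SDSC dECM on the log2(RPKM + 1) scale, in cells (horizontal axis) and in pellets (vertical axis); red points are the 115 genes and grey points the other 12129 tested genes. The red points lie at the left by choice, and 96 of them lie below 0 on the vertical axis, most by less than 0.5. Over all tested genes, 93.7% lie within 0.5 of 0 on that axis.

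Taken library by library, the order in pellets was widest between SDSC and DF dECM pellets and not present for plastic against ASC dECM pellets. Plastic and SDSC dECM pellets were both above ASC and DF dECM pellets in 51 of the 115 genes (44.3%), against a background of 14.7%. The opposite order without overlap was found in 5 genes (4.35%), against a background of 12.5%. A separation of at least 1 was left in 1 gene, against a background of 0.0408%. That gene stood at 3.11 RPKM after plastic and 3.44 RPKM after SDSC dECM, and at 0.683 and 0.793 RPKM after ASC and DF dECM. SDSC dECM pellets alone were above both ASC and DF dECM pellets in 93 genes (80.9%), against a background of 30.8%. Plastic pellets alone were above both in 56 genes (48.7%), against a background of 48.5%, so for plastic the share was that of all genes.

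The pairs of pellet libraries showed the same split. DF dECM pellets were below SDSC dECM pellets in 104 of the 115 genes (90.4%, background 36.2%), with a median difference of -0.65, against a median of 0.12 over all tested genes. ASC dECM pellets were below SDSC dECM pellets in 94 (81.7%, background 47.5%), with a median of -0.44 against 0.02. DF dECM pellets were below plastic pellets in 81 genes (70.4%, where all tested genes gave 55.7%), with a median of -0.22 against -0.03. ASC dECM pellets were below plastic pellets in 61 genes (53.0%, where all tested genes gave 65.6%), with a median of -0.01 against -0.12. These 4 differences share libraries pairwise and are not independent of each other.

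The highest and lowest pellet libraries were counted for each gene. SDSC dECM pellets were highest in 72 genes (62.6%), against a background of 22.0%, and lowest in 7 (6.09%), against 38.6%. DF dECM pellets were lowest in 51 genes (44.3%), against a background of 8.90%, and highest in 3 (2.61%), against 21.2%. Plastic pellets were highest in 21 (18.3%, background 37.8%) and lowest in 24 (20.9%, background 14.8%). ASC dECM pellets were highest in 13 (11.3%, background 10.2%) and lowest in 22 (19.1%, background 23.2%). USC dECM pellets were highest in 6 (5.22%, background 8.76%). Each of these counts rests on 1 library, and differences between cultures of a substrate were not measured.

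**Figure D4:**
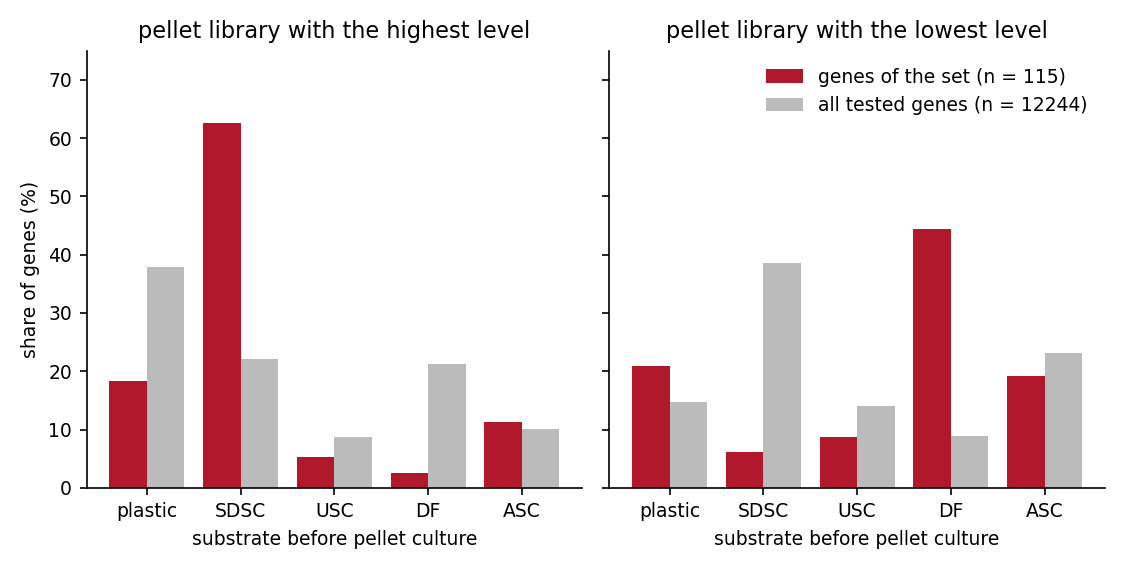
Share of genes (vertical axis, percent) in which each pellet library, named by its former substrate, held the highest (left) or the lowest (right) of the 5 pellet levels, in red for the 115 genes and in grey for all 12244 tested genes. SDSC dECM pellets are highest in 62.6% of the set and DF dECM pellets lowest in 44.3%, while over all tested genes these shares are 22.0% and 8.90%.

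The change from cells to pellets is given for each substrate as a description only, since the cell values that chose the genes enter it. After plastic, 63 of the 115 genes were lower in pellets by at least 1 (background 7.38%) and 8 higher (background 12.3%), with a median of -1.08. After SDSC dECM, 46 were lower (background 5.56%) and 17 higher (background 8.57%), with a median of -0.58. After ASC dECM, 50 were higher (background 11.9%) and 10 lower (background 8.13%), with a median of 0.81. After DF dECM, 37 were higher (background 13.1%) and 16 lower (background 7.51%), with a median of 0.58. After USC dECM, 33 were higher and 23 lower, together 56 (background 18.7%), with a median of 0.36. In 31 genes pellets were below cells after plastic and after SDSC dECM and above them after ASC and after DF dECM, against a background of 3.71%. Over all tested genes these 5 medians lay between 0.12 and 0.24.

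The genes took different courses into the pellets. In 38 of the 115 genes (33.0%) all 5 pellets lay inside the range of the 5 cell libraries, against a background of 9.88%, a share that the wide range in cells favours. In 18 of them the 5 pellets lay inside the gap itself, above ASC and DF dECM cells and below plastic and SDSC dECM cells. In 13 genes (11.3%) all 5 pellets were above all 5 cell libraries, against a background of 27.8%. In 21 genes (18.3%) all 5 were below, against a background of 13.6%. The wide range in cells and the exclusion of genes that moved in all 5 substrates work against both counts. The order of the substrates was kept without overlap in 15 of the 21 genes with pellets below all cells, where 26.1% of the tested genes with that course kept it. It was kept in 1 of the 13 genes with pellets above all cells (background 8.69%) and in 35 of the remaining 81 (background 14.8%). By the size of the gap, it was kept in 30 of the 71 genes under 1.5, in 16 of the 29 from 1.5 to 2 and in 5 of the 15 at 2 or more, beside 14.7% of all tested genes.

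The gene with the lowest pellet difference, -1.51, was high in 1 pellet library and low in another. It stood at 18.8 RPKM in SDSC dECM pellets, 7.13 in ASC dECM pellets, 4.81 in plastic pellets, 3.09 in USC dECM pellets and 0.752 in DF dECM pellets. Plastic pellets were below ASC dECM pellets here, and the widest distance was that between the SDSC and DF dECM libraries. The gene was not called (limma, adjusted p = 0.9999).

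The 2 genes with the highest pellet difference had the 2 pairs in the reverse order in pellets. ENSOCUG00000003636, with a counted length of 4125 bases, stood at 14.02 RPKM in plastic cells, 9.88 in SDSC dECM cells, 4.27 in USC dECM cells, 1.73 in DF dECM cells and 1.61 in ASC dECM cells. In pellets it stood at 38.7 RPKM after ASC dECM, 33.9 after DF dECM, 26.4 after USC dECM, 20.0 after plastic and 8.30 after SDSC dECM. The pairs did not overlap in either stage, and ASC and DF dECM were the low pair in cells and the high pair in pellets, while within the high pair of the cells plastic stayed above SDSC dECM. ASC dECM pellets were 4.66-fold above SDSC dECM pellets, while SDSC dECM cells had been 6.14-fold above ASC dECM cells. The pellet difference was 1.41 (log2, SE 0.38) and was not called (limma, adjusted p = 0.9999). It was 2.0 without the plastic pellets (limma, adjusted p = 0.0159) and 0.82 without the SDSC dECM pellets (limma, adjusted p = 0.198), fits in which the other library of that pair stands alone; the gene was picked for its high pellet difference.

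ENSOCUG00000007526, of 1506 counted bases, stood at 7.34 RPKM in plastic cells, 5.63 in SDSC dECM cells, 2.66 in USC dECM cells, 2.19 in DF dECM cells and 1.94 in ASC dECM cells. In pellets it stood at 6.47 RPKM after DF dECM, 5.89 after USC dECM, 5.26 after ASC dECM, 3.43 after SDSC dECM and 3.36 after plastic. Its reads numbered from 41 in ASC dECM cells to 201 in plastic cells, and the counting intervals of ASC dECM pellets (4.36 to 6.30 RPKM) and SDSC dECM pellets (2.78 to 4.17 RPKM) did not overlap. The pellet difference was 0.64 with an SE of 0.22 and was not called (limma, adjusted p = 0.9999).

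**Figure D5:**
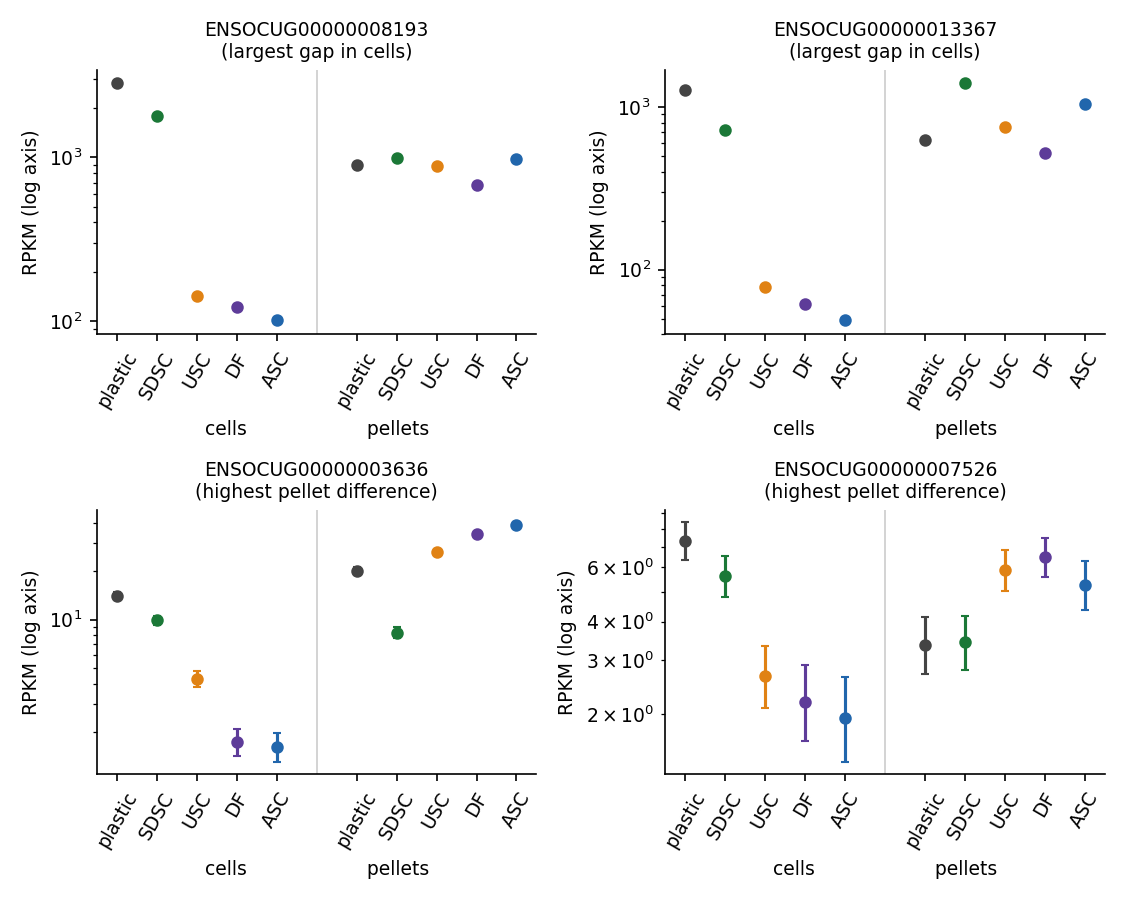
RPKM on a log axis (vertical) in the 5 cell libraries (left of each panel) and the 5 pellet libraries (right) for the 4 named genes; bars are exact 95% Poisson intervals of the reads and cover counting error only. In the upper panels the spread among cells (102 to 2850 and 48.8 to 1277 RPKM) is wider than among pellets (675 to 985 and 519 to 1411 RPKM), and in the lower panels ASC and DF dECM lie below plastic and SDSC dECM in cells and above them in pellets.

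The rule turned round, for genes high in ASC and DF dECM cells, gave 205 genes (254 before exclusions, a background of 2.07%). USC dECM cells lay inside the gap in 167 of them (81.5%), beside 79.1% in the low set. In pellets, those genes kept their order without overlap in 36 of 205 (17.6%), against a background of 12.5%, while the low set did so in 44.3% against a background of 14.7%. Their median pellet difference was 0.15, against 1.62 in cells. The difference between the sets was not tested, and both use the same libraries.

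Transcript size was a property the rule did not use. The genes of the set had a median counted length of 1995 bases with quartiles of 1275 and 3431.5 bases. All tested genes had a median of 1802.5 bases with quartiles of 969 and 3016.25 bases. Lengths in the set ran from 42 to 23274 bases, and 5 genes (4.35%) were shorter than 200 bases, beside 2.86% of all tested genes.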

How the data were processed

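mRNA libraries were read in 5 cell and 5 pellet samples. The authors deposited 1 table of log2 values, with 1 column per library. The submitters' processing notes name Subread, featureCounts and the build OryCun2.0; the sources used here do not give versions, annotation or strand use. The deposited values are log2(RPKM + 1) raised by 0.0001, since undoing this gave whole reads for 100% of the 21536 genes above 0 (tolerance 0.001), whole-number gene lengths (tolerance 0.0001) and whole library totals, so depth is known and RPKM were divided by reads counted in genes. The recovered reads made up from 99.989% to 99.997% of these totals, since reads of a gene that share a common factor can be understated.

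Differences were taken on log2(RPKM + 1), a scale that shrinks changes of low genes. Genes averaging 1 RPKM or more were tested with limma 3.58.1 in R 4.3.3 (variance prior following expression, two-sided, Benjamini-Hochberg, threshold 0.05) on the 5 pellet libraries, with plastic and SDSC dECM as 1 class, ASC and DF dECM as another and USC dECM alone. Nothing in the labels says how cultures relate, so p-values measure only the spread between these libraries. The test was checked on simulated reads in which the substrates of a pair did not differ, so that check does not cover the spread between them. Python 3.11.15, numpy 2.4.6, pandas 2.3.3, scipy 1.17.1 and matplotlib 3.10.9 gave counts, exact Poisson intervals and figures. The genes, classes and lists were chosen with earlier results of these data known. Named genes were the 2 with the largest gap and the 2 with the highest pellet difference, the rule set for identifiers without symbols. Lists of pathway and marker genes could not be used without symbols.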

Additional observations from a re-analysis of the deposited data

Results flagged for a closer look

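The change from cells to pellets had opposite signs for the 2 pairs of substrates. Over the 115 genes its median was -1.08 after plastic and -0.58 after SDSC dECM, but 0.81 after ASC dECM and 0.58 after DF dECM, a distance of 1.52 on the log2 scale between the means of the pairs. The difference between the pairs was not tested, and the cell libraries that chose the genes are part of it. ENSOCUG00000008193 had the same opposite signs with a distance of 4.11, and ENSOCUG00000007526 with a distance of 1.92, neither of them tested. The other 2 named genes did not have these signs: ENSOCUG00000013367 was higher in pellets after SDSC dECM by 0.97, and ENSOCUG00000003636 was higher in pellets after plastic by 0.48. In 31 of the 115 genes each of the 4 substrates had these signs, against a background of 3.71% of all tested genes.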

How the results depend on the processing

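The number of genes in the set was 44 with a gap of at least 1.5 and 175 with a gap of at least 0.8. With 1 cell library left out of the gap at a time, an alternative added after seeing the data, it lay between 138 and 222; without the SDSC dECM cells it was 222 and without the DF dECM cells 175. Median-of-ratios scaling shared 111 of its 116 genes with the set, and thinning to equal reads 109 of 118. A pseudocount of 0.1 RPKM gave 163 genes, 109 of them in the set. USC dECM cells lay on the plastic and SDSC side in 0% of genes with a gap of at least 1.5, and in 5.71% to 13.8% with a cell library left out, when between 68.3% and 72.5% lay inside the gap. Pellets kept the order in 32.9% to 39.1% with a cell library left out. The share was 80.9% for SDSC dECM pellets alone, and 38.8% with median-of-ratios scaling, where 17.5% of all tested genes did so. With that scaling, SDSC dECM pellets alone were above both ASC and DF dECM pellets in 82.8% of genes, against a background of 42.2%. Plastic pellets alone were above both in 41.4%, against a background of 39.6%. The counts of highest and lowest pellet libraries were not repeated with it. Median changes from cells to pellets with a gap of at least 1.5 were -1.45 (plastic), 1.30 (ASC dECM) and 0.81 (USC dECM), and with a pseudocount of 0.1 RPKM the ASC dECM median was 1.15. Median-of-ratios scaling brought the 5 medians of all tested genes from between 0.12 and 0.24 to between 0.01 and 0.03. With 1 pellet library left out, the test called from 1 to 176 genes in all and from 0 to 11 of the set (176 and 11 without plastic), and the median pellet difference lay between -0.53 and -0.13; without SDSC dECM it was -0.13, beside -0.07 over all tested genes. The cause of these changes was not tested. ENSOCUG00000008193 then had pellet differences from -0.48 to 0.047, above 0 without DF dECM, and ENSOCUG00000013367 from -0.94 to 0.23, above 0 without SDSC dECM (0.23) or DF dECM (0.14). No paired analysis was possible because the tested pellet difference uses pellet libraries only, 1 per substrate, and the labels give no number that pairs substrates; pellet minus cell values within a substrate were described and not tested.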
